A study of Mus musculus with 6 samples.

Results

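The genes described here encode the insulin-like growth factor 2 mRNA-binding proteins (*Igf2bp1*, *Igf2bp2* and *Igf2bp3*), the LIN28 proteins (*Lin28a* and *Lin28b*) and the high mobility group AT-hook proteins (*Hmga1* and *Hmga2*), 7 of the 41128 genes listed. They were selected on a readout of these same leukemias: *Igf2bp3* was chosen by its values, because it was read almost only in *Hoxa9*/MTV, and the other members were taken with it as families of the fetal program. The values of *Igf2bp3* are therefore given as a description, with no test. KIT+ bone marrow (BM) cells of young adult female CD45.1+ mice were transduced with a retrovirus carrying *Hoxa9* together with either the empty control vector MTV (*Hoxa9*/MTV) or a vector carrying human *IRX3* cDNA (*Hoxa9*/*IRX3*), then drug selected. They were transplanted, with unfractionated CD45.2+ BM cells as helper cells, into lethally irradiated CD45.2+ female recipients. The sample labels give the strain as C57BL/6; in the study's methods the CD45.2+ mice are C57BL/6 and the CD45.1+ mice, the source of the sequenced cells, are B6.SJL-PtprcaPepcb/BoyJ. When recipients became sick with acute myeloid leukemia (AML), their BM was frozen. The study reports that AML arose later in *Hoxa9*/*IRX3* recipients than in *Hoxa9*/MTV recipients. Cohort therefore cannot be told apart from time since transplantation. RNA for sequencing came from live leukemia cells of donor origin, isolated after thawing by a flow sort on KIT and Gr1. Each cohort had 3 mice with 1 library each, mice 1.1, 1.2 and 1.4 for *Hoxa9*/MTV and mice 3.2, 3.3 and 3.5 for *Hoxa9*/*IRX3*. Neither the number of clones in each leukemia nor the vector integration sites are given in the sources used here.

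IGF2BP proteins bind mRNAs, many of them carrying N6-methyladenosine, and affect how long those mRNAs last and where they are translated. LIN28 proteins bind let-7 precursors and block their maturation, and let-7 microRNAs in turn repress *Lin28a*, *Lin28b*, *Hmga2* and IGF2BP mRNAs, so that in the embryo high LIN28 goes with low let-7. HMGA proteins are small chromatin proteins that bind AT-rich DNA; *Lin28b*, *Hmga2* and *Igf2bp3* mark fetal liver hematopoiesis and are low in adult blood stem cells.

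Values are RPKM, reads scaled to the length of a gene's whole span (introns included) and to the depth of the library, as deposited. The low values were whole multiples of 1 read, which gave the depth that these steps imply: 8843083, 8305937 and 9672522 reads in mice 1.1, 1.2 and 1.4, and 8860734, 9803621 and 7979246 in mice 3.2, 3.3 and 3.5. Protein-coding genes over 0.5 RPKM in at least 1 mouse were tested with limma on log2(RPKM + 0.5), and a gene was called at a Benjamini-Hochberg adjusted p under 0.05 with at least a 2-fold difference on that scale, which understates the change of low genes. Of 9522 tested genes, 298 were called (3.13%), 193 lower (2.03%) and 105 higher (1.1%) in *Hoxa9*/*IRX3*. The count depended on the mice included. Leaving out 1 control (mouse 1.1, 1.2 or 1.4) brought it to 76, 66 or 61. Leaving out 1 *Hoxa9*/*IRX3* mouse (3.2, 3.3 or 3.5) brought it to 415, 393 or 297. Pearson's r between mice, across the tested genes, was 0.978 to 0.983 within *Hoxa9*/MTV, 0.917 to 0.925 within *Hoxa9*/*IRX3* and 0.894 to 0.918 between cohorts. The *Hoxa9*/*IRX3* leukemias were thus about as far from each other as the nearest pairs of mice from different cohorts.

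The vector genes were read first. *Hoxa9* was at 340, 363 and 174 RPKM in mice 1.1, 1.2 and 1.4 and at 242, 154 and 221 RPKM in mice 3.2, 3.3 and 3.5, with cohorts that overlapped. Mouse *Irx3* had 0 reads in each *Hoxa9*/MTV library and 454, 14 and 4 reads in mice 3.2, 3.3 and 3.5. All *Hoxa9*/*IRX3* libraries lay above the controls, by a margin that was small in mice 3.3 and 3.5. The retroviral cDNA is human and the reads were aligned to the mouse genome, so these reads are no measure of its level; whether they came from the vector was not tested.

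Of the 7 members, 3 passed the threshold of 0.5 RPKM: *Igf2bp3*, which passed only through *Hoxa9*/MTV, *Lin28a* and *Hmga1*. *Igf2bp1* and *Lin28b* had 0 reads in all 6 mice. *Hmga2* had 1 read in mouse 1.2 and 1 read in mouse 3.5, and *Igf2bp2* had 16 to 153 reads. With *Igf2bp3* left aside as chosen on its values, 0 of the other 2 tested members were called by limma or by limma voom, beside 3.13% of all tested genes (2.03% lower, 1.1% higher; 4.79% per exon length). Of these members 1, *Hmga1*, had an unadjusted p under 0.05, as did 2315 of the 9522 tested genes. The cohorts did not overlap for *Hmga1*, nor for *Igf2bp3*, where the choice fixed it; the same held for 33.7% of all tested genes.

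**Figure D1:**
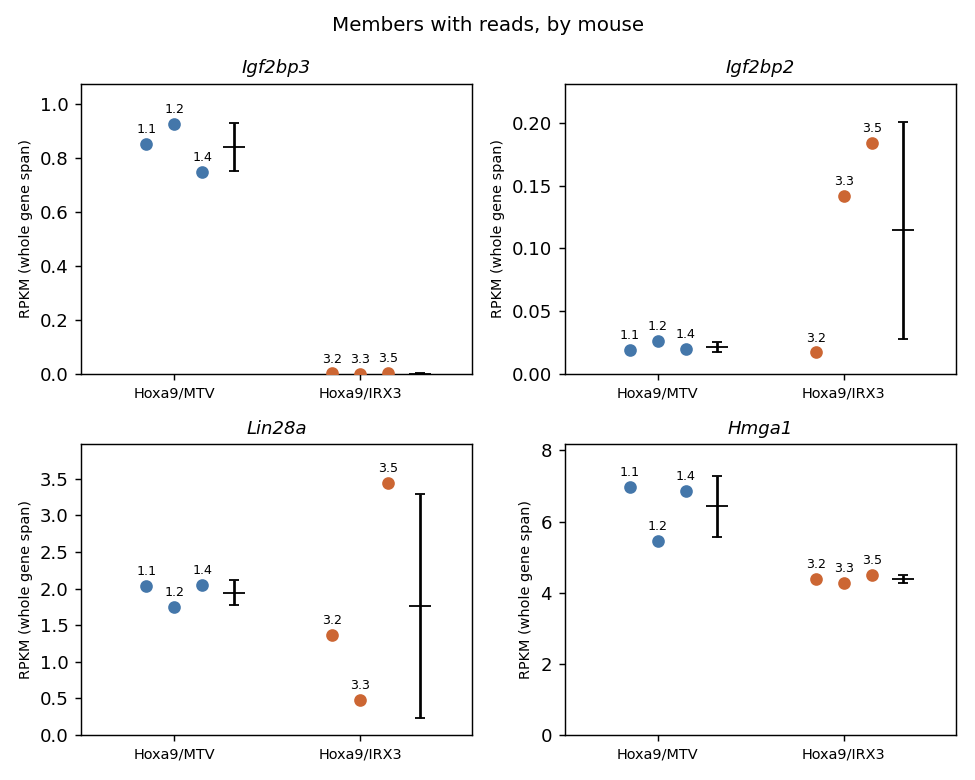
RPKM of *Igf2bp3*, *Igf2bp2*, *Lin28a* and *Hmga1* in each mouse (points, labelled by mouse) with the cohort mean and SD (black bars, n = 3). *Igf2bp3* sat between 0.747 and 0.924 RPKM in *Hoxa9*/MTV and near 0 in *Hoxa9*/*IRX3*, *Igf2bp2* was higher in mice 3.3 and 3.5 only, *Lin28a* was spread widely in *Hoxa9*/*IRX3*, and *Hmga1* was lower in each *Hoxa9*/*IRX3* mouse.

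Levels of different genes were compared per exon length, that is, RPKM multiplied by the gene's annotated span and divided by the summed length of its exons. For *Hmga1* the annotated span, 7178 bases, is longer than the 7055 bases that made its reads whole. Its values on this scale are therefore slightly higher than its reads would give. Reads within introns are still counted, so this scale overstates genes with much intronic signal. In *Hoxa9*/MTV the order was *Igf2bp3* at 25.1 ± 2.65, *Hmga1* at 21.7 ± 2.88, *Lin28a* at 7.55 ± 0.667 and *Igf2bp2* at 0.567 ± 0.103 RPKM per exon length (SD, n = 3). *Igf2bp3* and *Hmga1* overlapped and did not differ beyond their spread, while *Lin28a* and *Igf2bp2* lay below them and apart from each other. In *Hoxa9*/*IRX3* the order was *Hmga1* at 14.8 ± 0.363, *Lin28a* at 6.85 ± 5.93, *Igf2bp2* at 2.95 ± 2.23 and *Igf2bp3* at 0.0626 ± 0.0342 (SD, n = 3). *Lin28a* and *Igf2bp2* overlapped there, and *Igf2bp3* was below both. The median of all tested genes was 14.7 in *Hoxa9*/MTV and 13.9 in *Hoxa9*/*IRX3*, and *Hmga1* was above 64.5% and 52.6% of tested genes in the respective cohorts. *Igf2bp3* was above 69.7% of tested genes in *Hoxa9*/MTV and above 0.221% of them in *Hoxa9*/*IRX3*.

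*Igf2bp3* (ENSMUSG00000029814; GRCm38 chr6:49085223-49214957, minus strand) encodes the IGF2BP family member best known as an oncofetal protein. It was at 0.852, 0.924 and 0.747 RPKM in mice 1.1, 1.2 and 1.4, from 977, 996 and 938 reads. In mice 3.2, 3.3 and 3.5 it was at 0.00261, 0.000786 and 0.0029 RPKM, from 3, 1 and 3 reads. The control leukemias were thus alike, and in each *Hoxa9*/*IRX3* leukemia the gene was at or below the 3 reads taken as the limit of detection. Summed over mice, 2911 reads stood against 7, a ratio of 413 after scaling to library size. The ratio rests on 7 reads and is a description only, since the gene was chosen for this difference. On the log2(RPKM + 0.5) scale the difference was -1.42, a compressed figure because the gene's RPKM is spread over a span of 129735 bases of which 4345 are exon. Per exon length it was -5.51, with a pseudocount of 0.1 it was -3.20, and with a pseudocount of 1 it was -0.88. In sorted cells read in bulk, fewer cells of a type and less RNA per cell cannot be told apart, here or in the results that follow.

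*Igf2bp2* (ENSMUSG00000033581; chr16:22059009-22163299, minus strand) encodes the family member that persists in adult tissues. It had 18, 23 and 20 reads in mice 1.1, 1.2 and 1.4 (0.0195, 0.0266 and 0.0198 RPKM) and 16, 145 and 153 reads in mice 3.2, 3.3 and 3.5 (0.0173, 0.142 and 0.184 RPKM). Mice 3.3 and 3.5 lay above every control, while mouse 3.2 lay below them all, so the cohorts overlapped. The controls averaged 0.022 ± 0.00398 RPKM and the *Hoxa9*/*IRX3* mice 0.114 ± 0.0866 RPKM (SD, n = 3), a ratio of 5.21 (exact two-sided permutation p = 0.4; with 3 mice against 3 it cannot go below 0.1). Per exon length *Igf2bp2* passed the threshold and was not called (log2 fold change 1.37, SE 0.63, limma adjusted p = 0.239; higher in 2 of 3 mice). *Igf2bp1* (ENSMUSG00000013415; chr11:95957163-96005940, minus strand), the member that binds beta-actin mRNA, was not detected; 3 reads would have been 0.00627 to 0.00771 RPKM. As a share of the summed IGF2BP level per exon length, *Igf2bp3* made up 98.1%, 97.6% and 97.8% in mice 1.1, 1.2 and 1.4. In mice 3.2, 3.3 and 3.5 *Igf2bp2* made up 85.1%, 99.4% and 98.2% of a sum that was itself far lower, 0.525, 3.68 and 4.83 against 22.8 to 28.3 in the controls. No stretch of 75 bases, the read length, was shared between the mRNAs of the 3 IGF2BP genes; their introns were not compared.

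Let-7 repression is part of what these families are known for, so matches to let-7 are a description of the members and not independent of their choice. Each of the 7 has in its longest annotated 3′ UTR at least 1 match to the let-7 seed, CTACCTC, against 9.02% of the 21037 protein-coding genes with a 3′ UTR. The let-7 family is defined by that seed (bases 2 to 8, in capitals), and 9 different mature sequences with it were found at 11 of the 12 listed loci. For the remaining locus, *Mirlet7a-2*, the annotation used gave no mature sequence with the seed, which does not show that the locus lacks it. Of the 9 sequences, 4 are shown to let the seed be set against the sites (RefSeq, GRCm38.p6).
let-7a-5p: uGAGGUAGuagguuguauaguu
let-7d-5p: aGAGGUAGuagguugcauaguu
let-7i-5p: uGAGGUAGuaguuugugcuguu
miR-98-5p: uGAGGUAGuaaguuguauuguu
The sites below come from GRCm38 transcripts, with the match in capitals. The match has 8 letters where the base opposite position 1 of the microRNA is A.
*Igf2bp1*, chr11:95961771-95961797, minus strand: gtgcgaagtaaaCTACCTCAaggtgtg
*Igf2bp2*, chr16:22059466-22059492, minus strand: cacaaataaaagCTACCTCAggtgttt
*Igf2bp3*, chr6:49086780-49086806, minus strand: atttttactcaaCTACCTCAggtattc
*Lin28a*, chr4:134005182-134005208, minus strand: cagcctgttgaaCTACCTCAtttttgc
*Lin28b*, chr10:45381015-45381041, minus strand: cgggcgggaagtCTACCTCAtgcaagc
*Hmga1*, chr17:27563280-27563306, plus strand: tctgttcacaaaCTACCTCtggacggt
*Hmga2*, chr10:120364217-120364243, minus strand: gacattcaatttCTACCTCAgcatcag

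The number of matches differed between members. *Igf2bp1*, *Lin28b* and *Hmga2* had 4 matches each, *Lin28a* had 2, and *Igf2bp2*, *Igf2bp3* and *Hmga1* had 1 each. Long 3′ UTRs hold more matches, so each was set against 3′ UTRs within 20% of its length, a set that includes the member itself. Of those, 0.355% had at least as many matches as *Igf2bp1* (6337 bases), 0.236% at least as many as *Lin28b* (4445 bases) and 0.134% at least as many as *Hmga2* (3014 bases). The share was 2.10% for *Lin28a* (2775 bases), 13.3% for *Igf2bp3* (2119 bases), 12% for *Igf2bp2* (1784 bases) and 8.07% for *Hmga1* (1183 bases). The 3 members with 4 matches were those at 0 or 1 read, and the members with reads in these leukemias had 1 or 2. A match is a description, not a site or a cause. Whether the number of matches bears on these levels was not tested, and let-7 itself was not measured.

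*Lin28a* (ENSMUSG00000050966; chr4:134003330-134018841, minus strand), the LIN28 protein that recruits enzymes adding uridines to let-7 precursors, was at 2.03, 1.75 and 2.05 RPKM in mice 1.1, 1.2 and 1.4 (279, 225 and 308 reads). In mice 3.2, 3.3 and 3.5 it was at 1.37, 0.473 and 3.45 RPKM (188, 72 and 427 reads). The control leukemias were close together, while the *Hoxa9*/*IRX3* leukemias lay on both sides of them and the cohorts overlapped. The controls averaged 1.94 ± 0.172 RPKM and the *Hoxa9*/*IRX3* mice 1.76 ± 1.53 RPKM (SD, n = 3). The log2 fold change was -0.34 (SE 0.47, limma adjusted p = 0.687; 95% interval -1.45 to 0.78), lower in 2 of 3 mice. Its sign depended on mouse 3.3: it was 0.15 without that mouse (adjusted p = 0.784). *Lin28b* (ENSMUSG00000063804; chr10:45376620-45486395, minus strand), the paralog linked to fetal blood formation, had 0 reads in every library, and 3 reads would have been 0.00279 to 0.00342 RPKM.

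*Hmga1* (ENSMUSG00000046711; chr17:27556497-27563674, plus strand), the HMGA gene found in many proliferating cells, was at 6.97, 5.44 and 6.86 RPKM in mice 1.1, 1.2 and 1.4 (435, 319 and 468 reads). It was at 4.38, 4.28 and 4.49 RPKM in mice 3.2, 3.3 and 3.5 (274, 296 and 253 reads). Each *Hoxa9*/*IRX3* mouse lay below every control, and the *Hoxa9*/*IRX3* mice were close to each other. The controls averaged 6.42 ± 0.851 RPKM and the *Hoxa9*/*IRX3* mice 4.39 ± 0.107 RPKM (SD, n = 3). The difference was -0.50 in log2 (SE 0.13, limma adjusted p = 0.0808; 95% interval -0.81 to -0.18), lower in 3 of 3 mice, and *Hmga1* was not called.

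*Hmga2* (ENSMUSG00000056758; chr10:120361275-120476469, minus strand), the fetal HMGA gene, was at or below 1 read in every library, where 3 reads would have been 0.00266 to 0.00326 RPKM. An antisense gene, *1700006J14Rik* (chr10:120364157-120384336, plus strand), lies within its span and begins inside its 3′ UTR. That gene had 1720, 2023 and 2188 reads in mice 1.1, 1.2 and 1.4 and 0, 92 and 1419 reads in mice 3.2, 3.3 and 3.5. *Hmga2* had 1 read in mouse 1.2, 1 in mouse 3.5 and 0 in the others; how reads over both genes were assigned was not tested. Neither of the genes next to *Igf2bp3* and *Igf2bp2* was called. *Malsu1*, on the opposite strand and overlapping the 3′ end of *Igf2bp3*, ranged from 1.51 to 1.59 RPKM in the controls and from 1.03 to 1.36 RPKM in the *Hoxa9*/*IRX3* mice, without overlap (log2 fold change -0.29, SE 0.11, limma adjusted p = 0.176). *Senp2*, the neighbor of *Igf2bp2*, ranged from 1.69 to 1.72 RPKM and from 1.55 to 1.71 RPKM, with overlap.

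**Figure D2:**
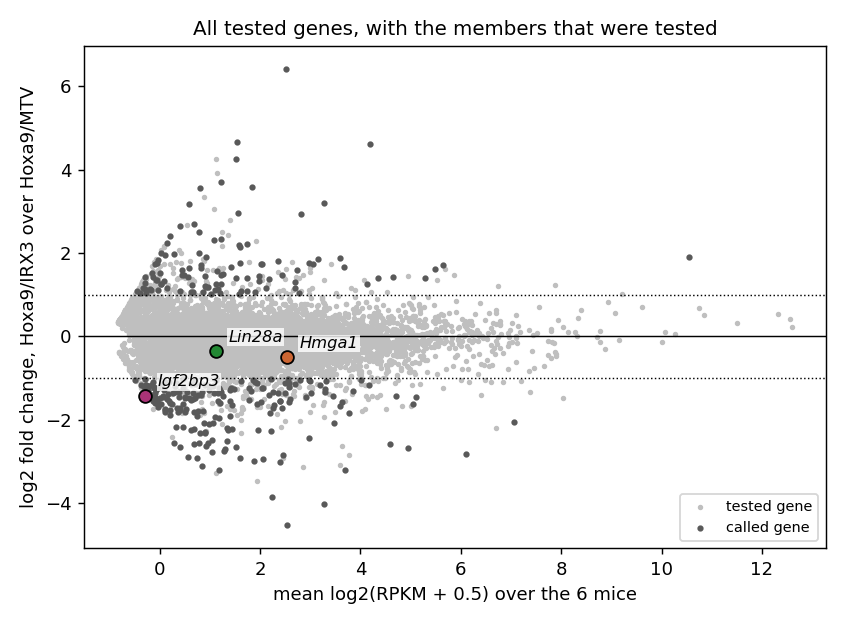
Log2 fold change (*Hoxa9*/*IRX3* over *Hoxa9*/MTV) against the mean log2(RPKM + 0.5) over the 6 mice for the 9522 tested genes (light points) and the 298 called genes (dark points), with dotted lines at 2-fold. *Igf2bp3* lies at -1.42 at the low end of the axis, where the pseudocount limits how far a gene can fall; *Lin28a* and *Hmga1* lie between the dotted lines.

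The genes whose values across the 6 mice were most like those of *Igf2bp3*, among 6969 tested genes averaging 1 RPKM or more, were *Hp1bp3* (Pearson's r = 0.997), *Gtpbp2* (0.997), *Axin1* (0.995), *Gria3* (0.995) and *Irf5* (0.993). Since the mice fall into 2 separate groups on this measure, r mostly describes that split and is given with no p. *Irf5*, a transcription factor of macrophage activation, averaged 10.9 ± 0.237 RPKM in the controls against 1.01 ± 0.200 RPKM with *IRX3*, and *Gria3*, a glutamate receptor subunit, was at 2.47 ± 0.660 and 0.148 ± 0.0369 RPKM (SD, n = 3). *Hp1bp3*, a heterochromatin-binding protein, was at 26.4 ± 1.25 and 11.4 ± 0.649 RPKM, *Gtpbp2* at 10.2 ± 0.408 and 6.69 ± 0.184 RPKM, and *Axin1*, a scaffold of the beta-catenin destruction complex, at 2.59 ± 0.0446 and 1.61 ± 0.0567 RPKM. All 5 were lower in each *Hoxa9*/*IRX3* mouse than in every control, which their choice by r made likely. The cohorts did not overlap for 33.7% of all tested genes. For *Hmga1* the closest were *Zfp68* (r = 0.989), *Cnpy3* (0.988), *Rpl35a* (0.987), *Unc50* (0.984) and *Cbfb* (0.981), whose log2 fold changes ran from -0.57 to -0.17. *Cbfb*, which encodes the partner subunit of RUNX1, averaged 6.01 ± 0.262 RPKM in the controls against 5.27 ± 0.0717 RPKM with *IRX3* (SD, n = 3).

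**Figure D3:**
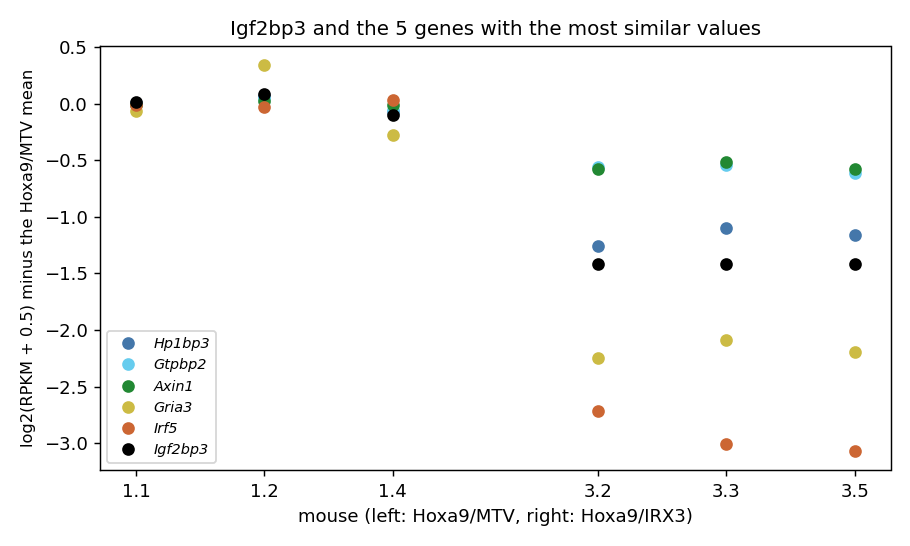
Log2(RPKM + 0.5) of *Igf2bp3* (black) and of the 5 genes with the highest Pearson's r to it over the 6 mice, each drawn relative to its *Hoxa9*/MTV mean, by mouse. The mice of each cohort lie close together and the cohorts are apart, by about 0.55 for *Axin1* and 2.93 for *Irf5*.

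Genes around the LIN28 and let-7 axis were read next. Of the 18 genes of microRNA processing and let-7 turnover, 15 were tested, and 0 were called by limma or by limma voom; 2 had an unadjusted p under 0.05 (2315 of 9522 over all tested genes), and the median log2 fold change was -0.08 against -0.06 over all tested genes. The most abundant were the helicases *Ddx5* (97.3 to 132 RPKM in the controls, 56.5 to 82.5 RPKM with *IRX3*) and *Ddx17* (22.3 to 44.1 RPKM over all mice) and the let-7 processing factor *Khsrp* (19.4 to 24.2 RPKM). The cohorts did not overlap for *Ddx5*, which was not called (log2 fold change -0.69, SE 0.20, limma adjusted p = 0.0956). *Trim71*, a stem cell gene and let-7 target, had 0 reads. Of 12 let-7 loci, 10 were listed, 6 of these were at 0 in every mouse, and the rest held a few reads, at most in *Mirlet7c-2* (3.22 RPKM in mouse 3.3), *Mirlet7i* (2.27 RPKM in mouse 3.3) and *Mirlet7b* (1.20 RPKM in mouse 3.3). Libraries of polyadenylated RNA do not measure mature microRNAs, so let-7 itself was not measured.

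Of 17 let-7 targets, 15 were tested, 1 was lower and 0 were higher, with a median log2 fold change of -0.09, beside 2.03% lower and 1.1% higher over all tested genes. Per exon length 16 were tested, 1 was lower and 1 was higher, beside 4.79% called. The gene called was *Ccnd1*, which encodes cyclin D1: it was at 3.71, 6.60 and 2.76 RPKM in mice 1.1, 1.2 and 1.4 and at 0.159, 0.0308 and 0.151 RPKM in mice 3.2, 3.3 and 3.5. All *Hoxa9*/*IRX3* mice were below every control by a wide margin (log2 fold change -2.91, SE 0.28, limma adjusted p = 0.00553). The most abundant targets were *Myc* (40.6 to 78.5 RPKM in the controls, 44.9 to 129 RPKM with *IRX3*), *Nras* (11.7 to 19.4 RPKM over all mice) and *Plagl2* (6.54 to 16.1 RPKM over all mice), and none of these was called. *Igf1r*, the receptor for IGF1 and IGF2, stayed below the threshold, at 0.0644, 0.0774 and 0.0789 RPKM in mice 1.1, 1.2 and 1.4 and 0.386, 0.413 and 0.393 RPKM in mice 3.2, 3.3 and 3.5. It was the reverse of *Igf2bp3* in direction, higher in every *Hoxa9*/*IRX3* mouse, with a ratio of means of 5.40 (exact two-sided permutation p = 0.1, the smallest possible). Per exon length *Igf1r* passed the threshold and was called higher (log2 fold change 2.16, SE 0.19, limma adjusted p = 0.00236; 3 of 3 mice); the gene was singled out after its values were seen.

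Of 16 mRNAs known to be bound by IGF2BP proteins, 9 were tested, 2 were lower and 0 were higher, with a median log2 fold change of 0.12. *Ccnd1* was one, and the other was *Cd44*, an adhesion receptor, at 5.99, 6.15 and 5.62 RPKM in mice 1.1, 1.2 and 1.4 and 3.08, 1.71 and 2.09 RPKM in mice 3.2, 3.3 and 3.5 (log2 fold change -1.23, SE 0.19, limma adjusted p = 0.0214). The call of *Cd44* ended without mouse 1.1, 1.2 or 1.4 (adjusted p = 0.0966, 0.106 and 0.0961). The most abundant were *Actb* (977 to 1372 RPKM over all mice), *Myc*, and *Ccng1*, which encodes cyclin G1. *Ccng1* ranged from 25.5 to 29.4 RPKM in the controls and from 39.0 to 54.5 RPKM with *IRX3*, with no overlap, and was not called (log2 fold change 0.73, SE 0.17, limma adjusted p = 0.0588). *Igf2*, after which the proteins are named, had 0 reads in all 6 mice, as did *Mycn* and *Gli1*. The 2 lower mRNAs are 2 of the 9 tested, beside 2.03% of all tested genes, and their binding by any IGF2BP protein in these cells was not measured.

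Of 15 genes that write, erase or read N6-methyladenosine, the mark that IGF2BP proteins recognize, 14 were tested and 0 were called by limma or by limma voom; 3 had an unadjusted p under 0.05 (2315 of 9522 over all tested genes), and the median log2 fold change was 0.06. The most abundant were the writer components *Rbm15b* (16.4 to 28.5 RPKM) and *Rbm15* (15.9 to 19.8 RPKM) and the reader *Ythdf1* (8.35 to 13.3 RPKM), and in each the cohorts overlapped. Of 10 other high mobility group genes, 8 were tested and 0 were called by either tool, beside 3.13% of all tested genes by limma. Of the 8, 2 had an unadjusted p under 0.05. The median log2 fold change was -0.35 against -0.06 over all tested genes. The most abundant were *Hmgn2* (17.5 to 32.9 RPKM), *Hmgn5* (6.28 to 10.2 RPKM) and *Hmgb2* (5.29 to 10.6 RPKM). *Hmgn1*, which encodes a nucleosome-binding protein, was at 4.39, 6.11 and 6.77 RPKM in mice 1.1, 1.2 and 1.4 and 0.190, 3.00 and 1.04 RPKM in mice 3.2, 3.3 and 3.5. The cohorts did not overlap, but the spread within *Hoxa9*/*IRX3* was wide and the gene was not called (log2 fold change -1.99, SE 0.55, limma adjusted p = 0.0878); without mouse 3.3 it was (-2.58, adjusted p = 0.0218). *Hmgn1* was chosen after its values were seen.

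The fetal label was set against 14 fetal hematopoietic and imprinted genes. *Sox17*, *Igf2*, *Meg3*, *Mest* and the embryonic globins *Hbb-bh1*, *Hbb-y* and *Hba-x*, 7 of the 14, had 0 reads in all mice, and *Dlk1*, *H19* and *Peg3* stayed below 0.1 RPKM. The adult globins *Hbb-bt*, *Hba-a1* and *Hba-a2* were at 0 too, so embryonic globins at 0 do not bear on a fetal program in these cells. With *Igf2bp1* and *Lin28b* also at 0 and *Hmga2* at 1 read or fewer, *Lin28a* and *Hmga1* were read in both cohorts, and *Igf2bp3* in *Hoxa9*/MTV, without most of the other fetal genes listed. Of the 2 tested genes, *Cdkn1c*, an imprinted inhibitor of cyclin-dependent kinases, was higher (1.1% over all tested genes). It was at 1.00, 0.669 and 1.07 RPKM in mice 1.1, 1.2 and 1.4 and 2.59, 6.61 and 11.8 RPKM in mice 3.2, 3.3 and 3.5, with no overlap (log2 fold change 2.2, SE 0.47, limma adjusted p = 0.0498). Among the fits that leave out a mouse, *Cdkn1c* was called without mouse 3.2 (adjusted p = 0.00926) and not without mouse 1.1, 1.2, 1.4, 3.3 or 3.5 (0.147, 0.183, 0.158, 0.0835 or 0.0636). By limma voom its adjusted p was 0.141. Per exon length *Cdkn1c* was called (limma adjusted p = 0.0443), and the call ended per exon length with no filter on level (0.0746). Per exon length 4 of the list were tested and 2 were higher, *Cdkn1c* and *Igf1r*, beside 252 higher of 11992 tested genes on that scale. *Arid3a*, a let-7 target linked to fetal B cell development, was at 9.30 to 14.0 RPKM and was not called.

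**Figure D4:**
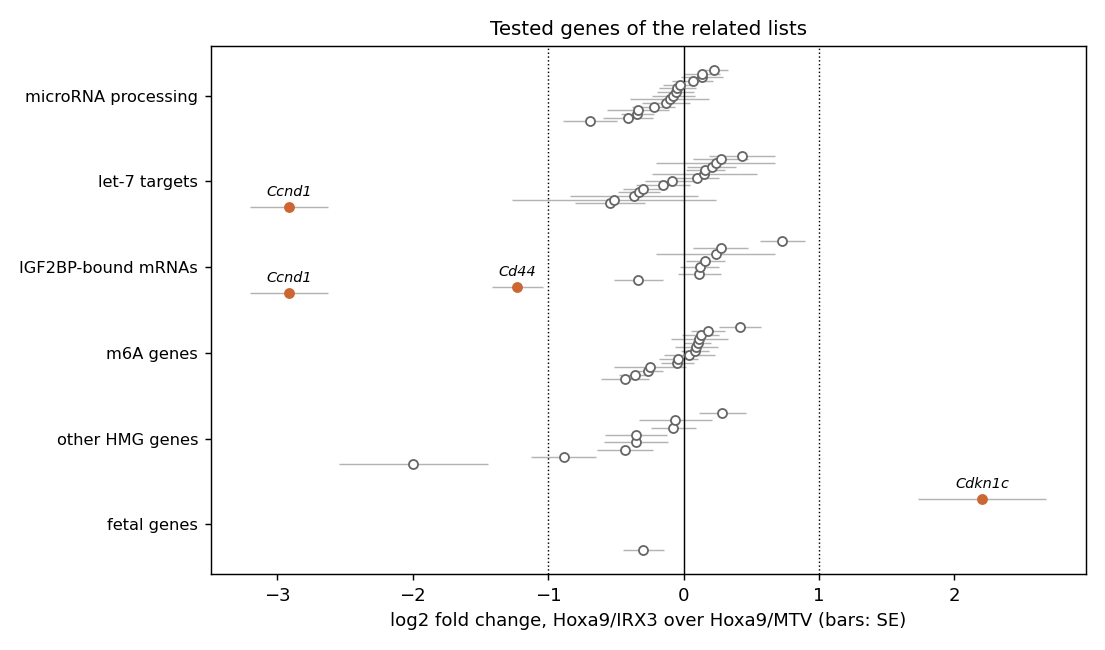
Log2 fold change with its SE for each tested gene of 6 lists related to the IGF2BP, LIN28 and HMGA families; filled points passed both limits and dotted lines mark 2-fold. *Ccnd1* (in both target lists) and *Cd44* lie to the left and *Cdkn1c* to the right. *Hmgn1*, which was not called, also lies to the left, at -1.99. The microRNA processing and N6-methyladenosine genes lie between the lines.

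The sorted cells were then checked against cell type markers, some of which differed between the cohorts as *Igf2bp3* did. *Kit* was at 1.63 to 3.12 RPKM and *Ly6c2*, part of the Gr1 antigen, at 413 to 844 RPKM, while *Ly6g*, its other part, ranged from 0.0532 to 0.145 RPKM in the controls and from 0.682 to 1.42 RPKM with *IRX3* (log2 fold change 1.35, SE 0.20, limma adjusted p = 0.0205). Of 10 granulocyte precursor markers, 1 was higher and 0 were lower (1.1% and 2.03% over all tested genes), the neutrophil elastase gene *Elane* (614 to 1053 RPKM against 2237 to 3332 RPKM; log2 fold change 1.91, SE 0.26, limma adjusted p = 0.0144), which was also the most abundant; the summed level was 3039, 4067 and 2756 RPKM in mice 1.1, 1.2 and 1.4 and 6951, 6436 and 6024 RPKM in mice 3.2, 3.3 and 3.5. Of 8 tested monocyte and macrophage markers, 3 were lower and 0 were higher (2.03% and 1.1% over all tested genes): *Cd68*, the most abundant (67.9 to 87.3 RPKM against 6.71 to 18.3 RPKM; log2 fold change -2.68, SE 0.35, limma adjusted p = 0.0135), *Ccr2* (18.7 to 26.3 RPKM against 3.69 to 6.48 RPKM; -2.06, SE 0.23, adjusted p = 0.00843) and *Klf4* (5.02 to 11 RPKM against 0.471 to 2.16 RPKM; -2.24, SE 0.44, adjusted p = 0.0391). The summed monocyte level was 159, 159 and 168 RPKM in mice 1.1, 1.2 and 1.4 and 29.8, 106 and 21.8 RPKM in mice 3.2, 3.3 and 3.5. The sum in mouse 3.3 was largely *Irf8*, at 63.1 RPKM, while *Cd68*, *Ccr2* and *Klf4* lay below every control in that mouse too. Several of these calls ended without a control mouse: adjusted p without mouse 1.1, 1.2 and 1.4 was 0.0828, 0.0984 and 0.103 for *Ly6g*, 0.0559, 0.0763 and 0.0762 for *Cd68*, and 0.138, 0.0951 and 0.153 for *Klf4*, which also ended without mouse 3.3 (0.0519). Without mice 1.1 and 1.4 in turn it was 0.0722 and 0.0745 for *Elane* and 0.0528 and 0.0515 for *Ccr2*. By limma voom *Elane*, *Cd68* and *Ccr2* were called, and *Ly6g* and *Klf4* were not (adjusted p = 0.0596 and 0.0615). The call of *Elane* also ended with no filter on level (limma adjusted p = 0.107) and per exon length with no filter on level (0.196). Per exon length with the filter it was kept (0.0249). The part of these markers in the results for the members was not tested.

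Of 4 tested mast cell and basophil markers, 2 were lower (2.03% over all tested genes), *Gata2* (2.95 to 5.84 RPKM against 0.0155 to 0.773 RPKM; log2 fold change -2.62, SE 0.37, limma adjusted p = 0.0166) and *Cpa3* (0.444 to 1.46 RPKM against 0 to 0.118 RPKM; -1.40, SE 0.28, adjusted p = 0.0432); *Mcpt8* was the most abundant (3.18 to 13.7 RPKM), *Fcer1a* was at 0, and the summed level was 14.5, 17.4 and 20.3 RPKM in mice 1.1, 1.2 and 1.4 and 4.51, 7.31 and 6.51 RPKM in mice 3.2, 3.3 and 3.5. Of 3 tested B cell markers, 1 was lower beside the same share, *Cd79b* (6.11 to 7.07 RPKM against 0.149 to 2.31 RPKM; log2 fold change -2.65, SE 0.52, limma adjusted p = 0.0383), with *Pax5* and *Ms4a1* at 0 and *Ebf1* under 0.02 RPKM. The B cell marker with the highest mean RPKM over all mice was the surrogate light chain gene *Igll1*, although in every control *Cd79b* lay far above it. *Igll1* was at 0.102, 0.0726 and 0.0312 RPKM in mice 1.1, 1.2 and 1.4 and 1.19, 9.11 and 38.4 RPKM in mice 3.2, 3.3 and 3.5. It was not called (log2 fold change 3.92, SE 1.02, limma adjusted p = 0.0776), by limma voom neither (0.398). *Igll1* was called higher without mouse 3.2 (5.09, adjusted p = 0.0125), with a pseudocount of 0.1 (0.0447), per exon length (0.0387) and with sample weights (0.0392). The call of *Gata2* ended without mouse 1.1, 1.2 or 1.4 (adjusted p = 0.0761, 0.0586 and 0.0857). Limma voom called 0 of the 4 mast cell and basophil markers (*Gata2* 0.0539, *Cpa3* 0.111) and called *Cd79b* (0.0380), whose call ended with a pseudocount of 0.1 (0.0593), no filter on level (0.0847), median-of-ratios scaling (0.0501) and quantile scaling (0.0512). Among the fits that leave out a mouse, *Cpa3* was called without mouse 1.2 alone (adjusted p = 0.0381; 0.158, 0.156, 0.0650, 0.0736 and 0.0711 without mice 1.1, 1.4, 3.2, 3.3 and 3.5). *Cd79b* was called without mouse 3.5 alone (0.00176; 0.126, 0.154, 0.151, 0.0657 and 0.0574 without mice 1.1, 1.2, 1.4, 3.2 and 3.3). *Mcpt8* was called only without mouse 3.3 (-1.45, adjusted p = 0.0339). Summed B cell levels were 6.45, 7.22 and 7.32 RPKM in mice 1.1, 1.2 and 1.4 and 2.01, 9.76 and 43.4 RPKM in mice 3.2, 3.3 and 3.5.

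T and NK cell markers were near absent: they summed to at most 0.0655 RPKM in any mouse, with *Cd3d* and *Ncr1* at 0 and *Klrb1c* the most abundant. Of the erythroid markers, *Hbb-bt*, *Hba-a1*, *Hba-a2* and *Alas2* were at 0, and *Tfrc* (4.36 to 8.19 RPKM), a gene of dividing cells in general, made up most of the sum of 4.69 to 8.49 RPKM. Bone marrow stroma markers summed to 0.568 to 6.35 RPKM, mostly *Pecam1*, and megakaryocyte markers to 1.61 to 12.8 RPKM, mostly *Gp1bb*, with *Ppbp* at 0. Across the lists, 11 genes other than the members were called, where 3.13% of all tested genes were called. The lists share genes, so the numbers tested are given per list. Of the 11, 1, *Ccnd1*, was called whichever mouse was left out. Leaving out mouse 1.1, 1.2 or 1.4 brought the list genes called to 1, 4 or 1, and leaving out mouse 3.2, 3.3 or 3.5 to 10, 15 or 9.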

How the data were processed

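RNA from sorted KIT+Gr1+ leukemia cells was sequenced as strand-specific polyA libraries with paired 75 base reads, 1 library per mouse. Per the submitters' processing notes and the study's methods, the authors aligned reads to GRCm38 with Bowtie2 2.2.1, filtered them with SAMtools 0.1.19, assigned them to Ensembl genes and deposited RPKM for 41128 genes. The reads lie over the whole gene span, and Bowtie2 does not split reads at introns, so spliced reads can be lost. The study's filter also removed alignments with a low quality score, so genes with close copies elsewhere in the genome can lose reads. Whether this changed the levels of *Hmga1* or the other high mobility group genes was not tested. Gene type, position, exon length and 3′ UTRs came from GENCODE M21 (GRCm38), which matched 97.9% of genes. Whole reads were recovered from the RPKM steps; 67.4% of tested genes came out whole within 0.05 reads in all mice, the lengths of *Hmga1* (7055 bases) and *Irx3* (3392 bases) being those that made their reads whole. The depth recovered this way, 7979246 to 9803621 reads, is the total that the RPKM steps imply. Both its ends lie slightly below those of the range of filtered reads that the study states. Limits from 3 reads cover counting error only.

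The cohorts were compared with limma 3.58.1 in R 4.3.3 (lmFit, eBayes with a variance trend) on log2(RPKM + 0.5) for protein-coding genes over 0.5 RPKM in at least 1 mouse, with Benjamini-Hochberg adjustment over 9522 genes. The fit was also run on simulated data in which each gene had the same spread in both cohorts. The real cohorts differed in spread, so that run does not show how the fit behaves on them. Single values were compared with exact two-sided permutation tests in scipy 1.17.1. Alternatives were pseudocounts of 0.1 and 1, no filter on level, over 1 RPKM in at least 3 mice, median-of-ratios and quantile scaling, exon length, limma voom on recovered reads, no variance trend, sample weights and leaving out each mouse; after the data were seen, exon length with no filter on level was added. No paired analysis was possible because the cohorts share no mouse number.

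Members were genes whose symbol equals a listed name. The members and lists were chosen with earlier results of these data known. Named genes were all members; from each list every gene past both limits and the 3 with the highest mean RPKM; from each marker list every gene past both limits, the most abundant gene and defining markers at 0; and the 5 genes with the highest Pearson's r to *Igf2bp3* and to *Hmga1*. Other named genes were chosen after their values were seen. The lists were microRNA processing and let-7 turnover, let-7 loci, let-7 targets, IGF2BP-bound mRNAs, N6-methyladenosine genes, other high mobility group genes, fetal hematopoiesis and imprinted genes, sort markers, and markers of granulocyte precursors, monocytes and macrophages, B cells, T and NK cells, erythroid cells, mast cells and basophils, bone marrow stroma and megakaryocytes. *Mirlet7e*, *Mirlet7f-1* and *Hmgn4* had no deposited value under these names, and some items are not reported here. Of let-7 loci, 12 of 12 had a RefSeq sequence.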

Additional observations from a re-analysis of the deposited data

How the results depend on the processing

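The number of called genes, 298, was 175 with no filter on level, 575 per exon length, 458 per exon length with no filter, and 61 to 415 when a mouse was left out; under the other alternatives it stayed within 1.5 times. Members called higher were 0 under every alternative run. Members past both limits on the lower side numbered 1, *Igf2bp3*, which was chosen on its values, so this is no test; the number was 0 with a pseudocount of 1 and, since *Igf2bp3* was then not tested, with the filter of over 1 RPKM in at least 3 mice, and 0 to 1 when a mouse was left out. List genes called, 11, were 6 with no filter on level, 6 by limma voom, and 1 to 15 when a mouse was left out; with no filter on level the calls of *Cdkn1c* (adjusted p = 0.0982), *Klf4* (0.0847), *Cpa3* (0.0788), *Cd79b* and *Elane* ended, and with a pseudocount of 1 those of *Cdkn1c* (0.0580), *Cpa3* (0.0530) and *Ly6g* (log2 fold change 0.89). With a pseudocount of 0.1 *Klf4* (0.0532), with sample weights *Cpa3* (0.0693), and with median-of-ratios scaling or no variance trend *Cdkn1c* (0.0532 and 0.0510) lost the call. *Lin28a* changed sign without mouse 3.3 (0.15) and was -0.86 without mouse 3.5; *Hmga1* kept its direction and stayed uncalled under all 17 alternatives (log2 fold change -0.60 to -0.40, adjusted p 0.0774 to 0.279). Members under the threshold were left out of the fit by its filter; per exon length *Igf2bp2* was tested and not called, and *Igf2bp1*, *Lin28b* and *Hmga2* were at or under the limit of 3 reads.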
